A study of Mus musculus with 14 samples.

Results

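Cytochrome P450 enzymes are haem proteins, most of them in the endoplasmic reticulum and some in mitochondria, that insert an oxygen atom into drugs, dietary chemicals, fatty acids, sterols, bile acids, retinoids and vitamin D. Families CYP1 to CYP3 are best known for clearing foreign chemicals in liver and gut, CYP4 enzymes hydroxylate the ends of fatty acids and eicosanoids, and the remaining families mostly make or clear endogenous sterols, steroids and vitamins. Many of them are controlled by nuclear receptors, and in the colon the surface epithelium is their best known site. Here the mouse P450 genes were taken as all genes on the array whose symbol begins with Cyp and a digit, with Cyp11a1 and Cyp11b1 left out. The array held 81 such genes of 19096 with a symbol, and each was read from 1 probe, the one with the highest mean signal. The scanner called the signal well above background on 3 or more arrays for 61 of the 81 genes, and for 15540 genes in all. The 20 genes below that limit included Cyp1a2, Cyp24a1 (the enzyme that inactivates vitamin D), Cyp7a1 (the rate-limiting enzyme of classical bile acid synthesis), Cyp8b1 and Cyp19a1 (aromatase), each above background on 0 or 1 arrays.

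The arrays measured whole colon from female C57BL/6 mice of 4 to 6 months on chow. Control mice, named Flox, carried floxed alleles of the glucocorticoid receptor gene Nr3c1, and GR iKO mice carried the same alleles together with a Villin-cre transgene, which acts in intestinal epithelium and leaves the receptor in the other cells of the colon. Mice of each genotype were kept on plain water or were given 2.5% dextran sulfate sodium (DSS, a polymer that injures the colonic epithelium) to drink for 7 days. The groups were Flox water (n = 4), Flox DSS (n = 3), GR iKO water (n = 4) and GR iKO DSS (n = 3). The labels number the arrays as replicates without saying what each held, so the p-values measure only the spread between these samples, which may be technical. Whole tissue was measured, so that fewer cells of a type and less RNA per cell cannot be told apart.

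A level below is the log2 processed intensity of a probe minus the 75th percentile of its array, and it is compared only within a gene. The number of arrays limits the precision. The 75th percentile ranged from 262 to 1003 intensity units, 62.6% to 71.3% of probes were well above background, and the median SD of the 61 genes was 0.39 in Flox water, 0.35 in GR iKO water, 0.67 in Flox DSS and 0.80 in GR iKO DSS. Each group had its own position on the slides, and position and group cannot be told apart. Nr3c1 in GR iKO colon was at 57.3% of Flox on water (exact permutation p = 0.0286, the smallest 4 against 4 arrays can give) and at 56.1% on DSS (exact permutation p = 0.1, the smallest 3 against 3 can give), but with arrays scaled to spike-in probes the difference on DSS turned from -0.83 to 0.40. Other Nr3c1 probes gave 47.6% to 55.7% on water (exact permutation p up to 0.143) and 55.2% to 75.7% on DSS (exact permutation p up to 0.5). Spike-in scaling moved the median of all probes from -0.09 to -2.45 on DSS in Flox and from -0.022 to -0.98 in GR iKO, so changes below are relative to the bulk of the RNA. In GR iKO relative to Flox on DSS, all 8 smooth muscle markers were lower, 4 of 7 neutrophil markers were higher, and 1 of 7 adipocyte markers was lower, with a list median of -1.61. With the DSS arrays fitted alone none of these calls between genotypes held. Adipocyte markers were higher for 3 of 7 on DSS in Flox and lower for 3 of 7 in GR iKO. The part of these cells in the P450 differences was not tested.

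The first question was which P450 genes moved with DSS. In Flox colon 14 of the 61 genes were higher and 22 lower on DSS, 59% of them, against 52.6% of all 29523 probes tested (limma, adjusted p under 0.05). By direction, 24.4% of all probes were higher and 28.2% lower, and among the P450 genes 23% were higher and 36.1% lower. In GR iKO colon 9 were higher and 18 lower, 44.3% of them, against 44.5% of all probes (22% higher and 22.5% lower). The P450 genes were thus called about as often as the array as a whole. Water and DSS arrays did not overlap for 32 of the 61 genes in Flox (52.5%, against 57.4% of all probes) and for 21 in GR iKO (34.4%, against 46.3%). The fitted differences, which for genes not above background in 1 group are no measure of fold, spread widely: from -5.12 to 6.11 with a median of -0.13 in Flox, where the median probe was at -0.09, and from -5.38 to 3.61 with a median of -0.28 in GR iKO, where it was at -0.022. Called in both genotypes were 7 higher genes (16.9% of all probes were higher in both) and 13 lower genes (17.7%). None was called in opposite directions. Another 16 genes were called in Flox alone and 7 in GR iKO alone, and 18 in neither. Every one of the 36 called genes in Flox had the same sign on each slide that held both groups, as had 25 of 27 in GR iKO, the exceptions being Cyp2a5 and Cyp2u1 (from -1.39 to 0.25). Leaving out Flox water replicate 4 or Flox DSS replicate 1 took the lower count in Flox from 22 to 14. Of the 36 calls in Flox 24 held without any single array, and the 12 others lost their adjusted p under 0.05 without 2 to 11 of the 14 arrays. These were Cyp2d26 (11 arrays), Cyp2d34 (10), Cyp2d9 and Cyp2j13 (9), Cyp2j5 (7), Cyp4f18 (5), Cyp2a4, Cyp2c23 and Cyp3a13 (4), Cyp17a1 and Cyp39a1 (3) and Cyp2d12 (2). In GR iKO 17 of 27 calls held. The 10 others were Cyp2a5 (10 arrays), Cyp4f14 (9), Cyp4a29 (6), Cyp2c55 (5), Cyp2s1 and Cyp3a11 (2), and Cyp2u1, Cyp39a1, Cyp3a41a and Cyp4b1 (1).

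**Figure D1:**
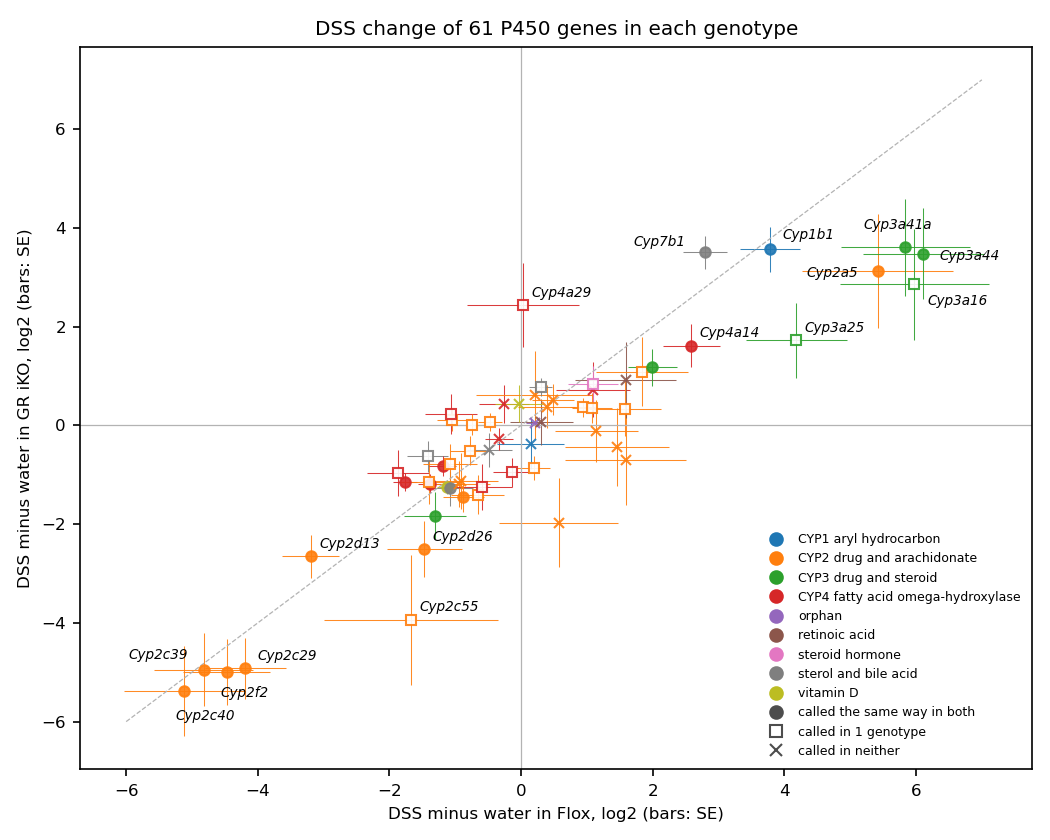
Log2 difference of DSS minus water for the 61 P450 genes in Flox (horizontal) and GR iKO (vertical), with SE bars, coloured by role, where filled circles were called in both genotypes, open squares in 1 and crosses in neither. Cyp2c40, Cyp2c39, Cyp2c29 and Cyp2f2 lie at the lower left between -5.38 and -4.19, and Cyp3a44, Cyp3a41a, Cyp3a16 and Cyp2a5 at the upper right below the dashed line of equal change.

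By role, the drug and arachidonate metabolising CYP2 genes, 30 of the 61, supplied most falls, which follows in part from their number. Of these 30, 13 were lower and 5 higher in Flox, and 10 lower and 1 higher in GR iKO. Among all probes 28.2% were lower and 24.4% higher in Flox, and 22.5% lower and 22% higher in GR iKO. Counts by role or subfamily, here and below, are of few genes and stand beside those shares. In CYP3, 5 of 6 genes were higher and 1 lower in Flox, and 3 higher and 1 lower in GR iKO. In CYP4, 5 of 12 were lower in each genotype, with 1 and 2 higher. Of the 5 sterol and bile acid genes 1 rose and 2 fell in Flox, and 2 rose and 1 fell in GR iKO. Both retinoic acid hydroxylases passed no test in either genotype. Cyp2a5, Cyp2j5, Cyp3a25 and Cyp4a14 were well above background on DSS arrays alone. Cyp1b1, Cyp3a16 and Cyp3a44 were so on DSS arrays and 1 water array each. These genes passed the filter through the arrays where they were high, so the counts of rises partly follow from the filter. Cyp2c39 and Cyp4f39, among the falls, passed through water arrays, with 1 DSS array each.

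**Figure D2:**
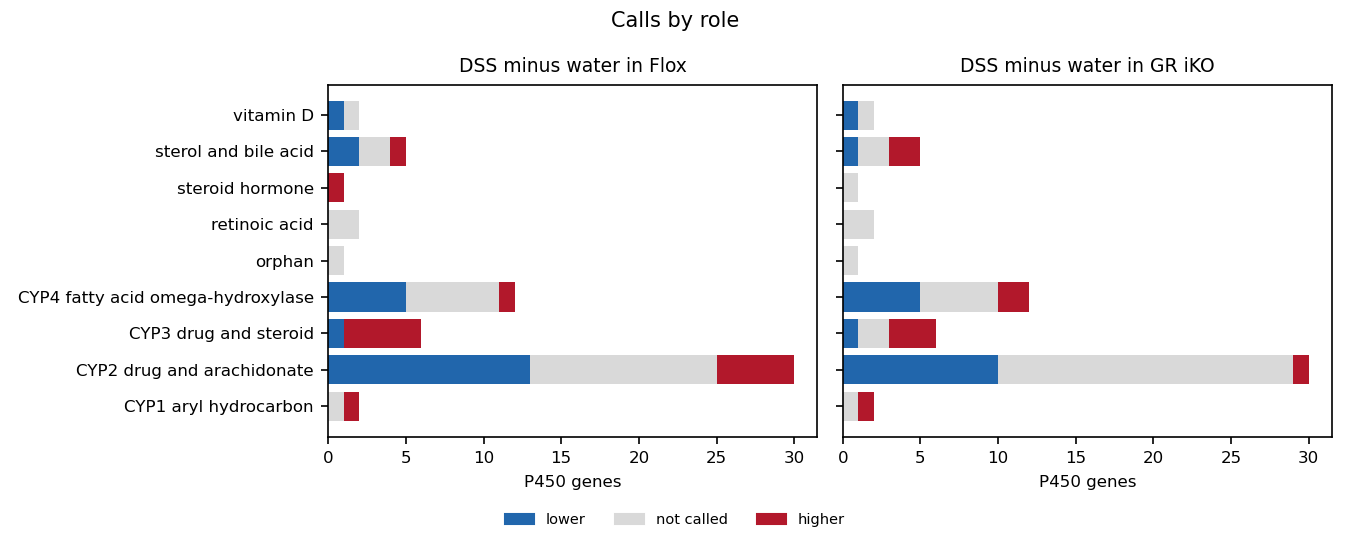
Number of P450 genes lower (blue), not called (grey) and higher (red) on DSS in Flox (left) and GR iKO (right), by role. CYP3 is mostly red, with 5 of 6 genes higher in Flox and 3 of 6 in GR iKO, and CYP2 is mostly blue and grey, with 13 and 10 of 30 genes lower.

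The largest falls were in the Cyp2c subfamily, epoxygenases and hydroxylases of arachidonic acid and drugs: of 9 genes, 4 were lower and 1 higher in Flox and 5 lower in GR iKO. Cyp2c40 makes a hydroxylated arachidonic acid and is abundant in mouse intestine. Its levels were 5.13, 4.62, 5.17 and 5.33 in Flox on water against -2.23, -0.70 and 2.76 on DSS, and 4.58, 4.95, 5.29 and 5.40 in GR iKO on water against -1.71, 1.06 and -0.33 on DSS. All 6 DSS arrays lay below all 8 water arrays, and Flox DSS replicate 4 fell least. The difference was -5.12 (SE 0.92, adjusted p = 0.000592) in Flox and -5.38 (SE 0.92, adjusted p = 0.000594) in GR iKO, and a second probe gave -5.38 and -5.69.

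Cyp2c39, a hydroxylase of retinoic acid, went from -1.88, -2.35, -1.56 and -1.41 to -7.79, -7.89 and -4.19 in Flox, and from -2.37, -2.35, -2.00 and -1.44 to -8.03, -6.54 and -6.39 in GR iKO. On DSS its signal was well above background on Flox DSS replicate 4 alone. In Flox the difference was -4.82 (SE 0.75, adjusted p = 0.000207), and in GR iKO the gene was at least 14.1-fold lower (adjusted p = 0.000259), the bound being set against the lowest signal well above background on each array, as for all such bounds here. For Cyp2c29, an arachidonic acid epoxygenase, Flox levels were 2.82, 2.44, 2.85 and 2.83 on water and -2.59, -2.09 and 0.32 on DSS, and GR iKO levels were 2.34, 2.63, 2.94 and 3.04 on water and -3.43, -1.33 and -1.79 on DSS. Groups again did not overlap, with differences of -4.19 (SE 0.61, adjusted p = 0.000136) and -4.92 (SE 0.61, adjusted p = 6.72e-05).

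RefSeq promoters (GRCm38.p6, from 250 bases before to 50 after the annotated start) were found for 48 of the 61 genes, 54 promoters in all. Those of Cyp2c29 and Cyp2c39, which fell together and lie close to each other on one chromosome, are shown with the letters AGGTCA or its complement TGACCT in capitals, a short motif that many nuclear receptors bind. Both are on the plus strand, Cyp2c29 at chr19:39286835-39287134 and the first of the 2 starts listed for Cyp2c39 at chr19:39347096-39347395.
Cyp2c29: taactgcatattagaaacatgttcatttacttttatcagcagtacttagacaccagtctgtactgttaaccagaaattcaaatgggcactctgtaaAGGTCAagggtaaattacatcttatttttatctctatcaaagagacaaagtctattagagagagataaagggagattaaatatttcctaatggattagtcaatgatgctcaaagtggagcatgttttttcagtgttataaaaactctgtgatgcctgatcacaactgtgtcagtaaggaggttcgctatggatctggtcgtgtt
Cyp2c39: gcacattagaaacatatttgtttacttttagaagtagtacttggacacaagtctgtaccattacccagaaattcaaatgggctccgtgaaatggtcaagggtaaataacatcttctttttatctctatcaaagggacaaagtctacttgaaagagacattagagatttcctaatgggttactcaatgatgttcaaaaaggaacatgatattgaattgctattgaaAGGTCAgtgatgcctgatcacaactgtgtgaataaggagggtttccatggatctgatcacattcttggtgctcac
The pair was 76.4% identical in a global alignment, yet the motif began 154 bases before the start in Cyp2c29 and 25 bases before it in Cyp2c39. These 6 letters, on either strand, were in 25.9% of the promoters of the 61 genes and in 16.3% of the 32851 promoters of the table. Among promoters of genes lower in both genotypes 3 of 10 held them, and among those higher in both 3 of 5. The glucocorticoid receptor motif AGAACA (or TGTTCT) was in 24.1% of the P450 promoters, against 19% of all. A match is a description of these windows only.

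The other Cyp2c genes did not share 1 pattern. Cyp2c55, a colon-enriched arachidonic acid hydroxylase, was at 4.05, 3.99, 3.87 and 2.90 in GR iKO on water and at -4.29, 3.32 and 0.27 on DSS. These groups overlapped, since GR iKO DSS replicate 3 stayed near the water arrays and replicate 1 was far below them. The difference was -3.94 (SE 1.32, adjusted p = 0.0289), and in Flox -1.67 (adjusted p = 0.31). Cyp2c65 and Cyp2c66, close paralogs whose probes may share targets, gave 1.59 and 1.46 in Flox and -0.70 and -0.43 in GR iKO, none called, with GR iKO DSS arrays of Cyp2c65 at -1.92, 0.34 and 3.48. Cyp2c23, an epoxygenase, was lower in Flox (-0.88, adjusted p = 0.0305) and GR iKO (-1.45, adjusted p = 0.0024). Cyp2c70, a hydroxylase of bile acids in mice, was higher in Flox (1.07, adjusted p = 0.0103), with spike-in scaling turning this to -1.29.

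Cyp2f2, known for activating naphthalene in lung airway cells, was among the largest falls. It was at 2.68, 1.77, 2.39 and 2.23 in Flox on water and -3.02, -3.41 and -0.18 on DSS, and at 1.73, 2.33, 2.08 and 2.51 in GR iKO on water and -3.58, -1.68 and -3.23 on DSS. The groups were far apart, by -4.47 (SE 0.66, adjusted p = 0.000152) in Flox and -4.99 (SE 0.66, adjusted p = 0.000105) in GR iKO.

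The Cyp2d subfamily, the mouse counterpart of the human drug enzyme CYP2D6, was lower for 5 of 7 genes in Flox and 2 of 7 in GR iKO. Cyp2d13 was at 0.32, -0.27, 0.03 and 0.75 on water and -3.46, -3.45 and -2.05 on DSS in Flox, and at 0.05, -0.13, 0.32 and 0.77 on water and -3.15, -1.48 and -2.57 on DSS in GR iKO. Every DSS array was below every water array, by -3.20 (SE 0.43, adjusted p = 7.71e-05) and -2.65 (SE 0.43, adjusted p = 0.000427) on average. Cyp2d26 went from 2.82, 2.44, 2.77 and 3.29 to 0.94, 2.41 and 0.74 in Flox and from 2.61, 2.67, 2.87 and 3.36 to 0.07, -0.93 and 1.95 in GR iKO. In Flox this fall of Cyp2d26 was -1.47 (SE 0.57, adjusted p = 0.0457), which went to an adjusted p of 0.151 when Flox DSS replicate 4 was left out. The GR iKO difference was -2.51 (SE 0.57, adjusted p = 0.00351). Cyp2d9, Cyp2d12 and Cyp2d34 were lower in Flox (-1.08, -1.39 and -0.78) and were at -0.78, -1.15 and -0.51 in GR iKO, not called. For all 3, GR iKO DSS replicate 3 lay within or above the GR iKO water arrays, for instance at 3.25 for Cyp2d12 against 1.08 and 1.60 in replicates 1 and 4. A second Cyp2d9 probe was called in neither Flox (-0.89, limma, adjusted p = 0.0875) nor GR iKO (-0.79). Cyp2d genes are close copies of one another, and their probes may be uncertain for that reason.

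**Figure D3:**
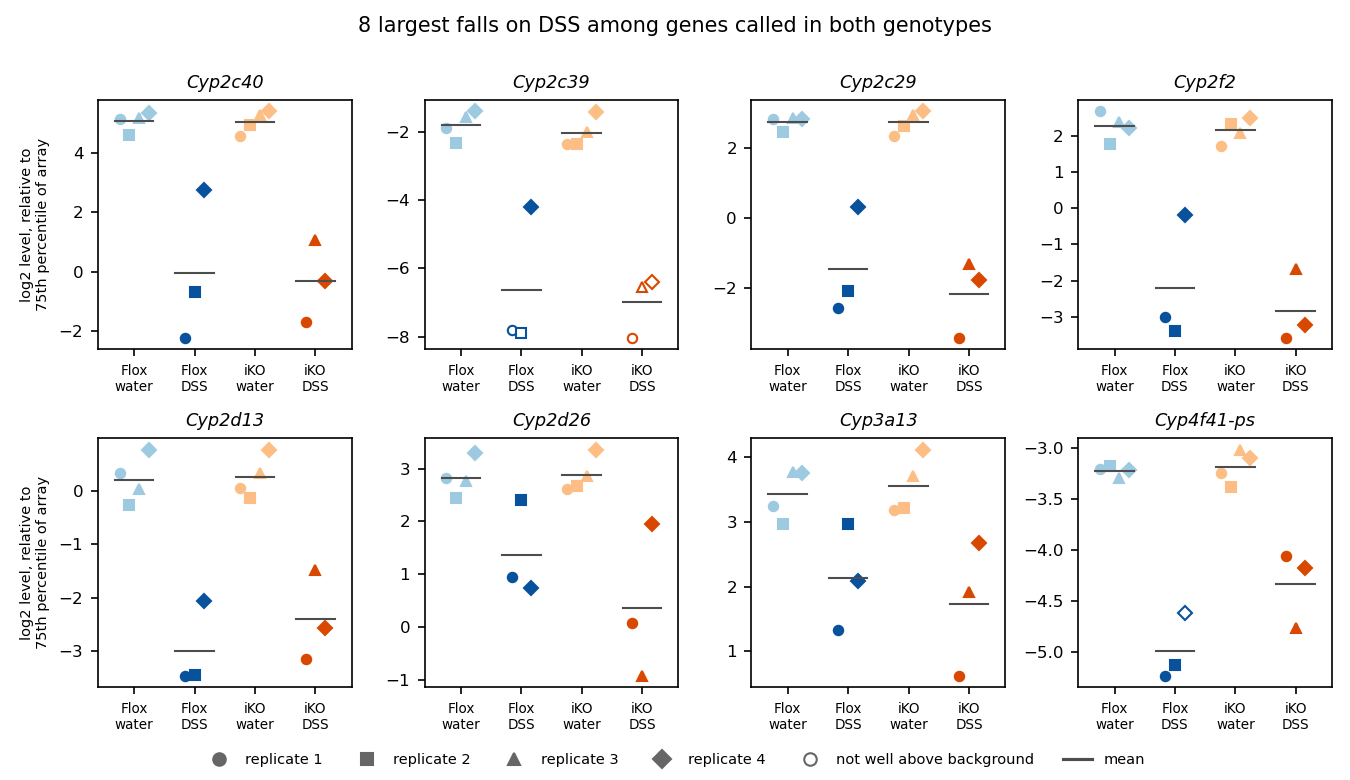
Levels (log2, relative to each array's 75th percentile) of the 8 largest falls among genes called in both genotypes, 1 panel a gene with its own axis, where symbols give the replicate, open symbols are not well above background, and lines are group means. In the Cyp2c, Cyp2f2 and Cyp2d13 panels all 6 DSS arrays lie below all 8 water arrays.

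Single-gene CYP2 subfamilies differed from one another. Cyp2s1, an enzyme of surface epithelia, was lower in GR iKO (-1.40, adjusted p = 0.0125), with GR iKO DSS replicate 4 at 4.72 among the water values of 4.56 to 4.92 and the other arrays at 2.61 and 2.75. Cyp2u1, a fatty acid hydroxylase, was also lower in GR iKO (-0.86, adjusted p = 0.0134), which normexp background correction turned to 0.064. Cyp2e1, the ethanol-inducible enzyme, was not called, but its GR iKO DSS arrays ran from -5.19 in replicate 1 and -3.46 in replicate 4 to 0.05 in replicate 3, beyond the water range of -1.42 to -0.44 on both sides. Cyp2b13, Cyp2b19 and Cyp2w1 passed no test.

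CYP3 genes, the main drug and steroid oxidases, mostly rose. Cyp3a44 was not well above background on any Flox water array (-8.66, -7.79, -7.73 and -7.62) and read -2.14, -2.40 and -0.98 on Flox DSS, at least 18.0-fold higher (adjusted p = 0.000174). In GR iKO it was at -5.23, -7.81, -8.15 and -8.08 on water and -3.12, -6.36 and -2.05 on DSS, a difference of 3.48 (SE 0.92, adjusted p = 0.00884) with 1 of 4 water arrays and 2 of 3 DSS arrays well above background. Cyp3a41a went from -5.16, -5.35, -6.06 and -5.10 to 0.15, -0.14 and 1.25 in Flox, by 5.84 (SE 0.98, adjusted p = 0.000361). In GR iKO its levels were -6.55, -5.27, -5.51 and -4.89 on water and -0.66, -5.26 and 0.08 on DSS, a difference of 3.61 (SE 0.98, adjusted p = 0.00994). For both genes GR iKO DSS replicate 3 stayed within the range of the water arrays while the other 5 DSS arrays lay above it. For Cyp3a44 the top of that range was GR iKO water replicate 1 at -5.23, and replicate 3 on DSS, at -6.36, lay above every other water array. Without GR iKO DSS replicate 3 the GR iKO differences were 4.73 for Cyp3a44 and 5.26 for Cyp3a41a, and without replicate 4 the Cyp3a41a call was lost (2.59, adjusted p = 0.0510).

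Cyp3a44 and Cyp3a41a, which rose together, have promoters on the minus strand of one chromosome, at chr5:145805825-145806124 and chr5:145720087-145720386, shown with the same capitals for AGGTCA.
Cyp3a44: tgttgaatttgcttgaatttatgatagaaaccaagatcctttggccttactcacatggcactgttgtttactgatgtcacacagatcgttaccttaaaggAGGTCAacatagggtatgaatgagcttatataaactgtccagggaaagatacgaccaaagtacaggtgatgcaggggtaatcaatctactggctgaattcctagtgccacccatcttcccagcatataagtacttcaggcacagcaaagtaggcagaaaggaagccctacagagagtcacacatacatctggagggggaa
Cyp3a41a: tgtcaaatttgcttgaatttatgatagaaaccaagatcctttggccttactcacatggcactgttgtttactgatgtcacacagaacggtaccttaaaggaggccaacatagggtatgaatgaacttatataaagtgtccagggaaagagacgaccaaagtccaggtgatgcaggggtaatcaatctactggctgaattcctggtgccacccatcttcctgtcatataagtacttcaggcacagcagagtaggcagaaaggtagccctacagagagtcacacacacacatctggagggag
The windows were 93.1% identical. Cyp3a44 held the motif beginning 150 bases before the start, and the Cyp3a41a window held no AGGTCA or TGACCT. Promoter windows do not show whether probes share targets. Whether those of Cyp3a16, Cyp3a41a and Cyp3a44 do was not checked, so that their values may not be 3 independent readings.

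Cyp3a11, the principal CYP3A of mouse liver, went from -2.79, -3.25, -2.74 and -2.70 to -1.10, -1.39 and -0.13 in Flox, by 1.99 (SE 0.37, adjusted p = 0.000798), which spike-in scaling turned to -0.37. In GR iKO it was at -3.12, -3.24, -2.75 and -2.73 on water and -1.94, -2.57 and -0.83 on DSS, a rise of 1.18 (SE 0.37, adjusted p = 0.0221) that lost its call without GR iKO water replicate 2 (adjusted p = 0.0548) or GR iKO DSS replicate 4 (adjusted p = 0.106). Cyp3a16 and Cyp3a25 were at least 13.3-fold and at least 5.40-fold higher in Flox (adjusted p = 0.000833 and 0.000686), and in GR iKO, with 1 and 0 of the 4 water arrays well above background, neither was called (adjusted p = 0.0565 and 0.0874). Cyp3a13, the CYP3A best known from intestinal epithelium, moved the other way. It went from 3.25, 2.97, 3.77 and 3.76 to 1.33, 2.97 and 2.08 in Flox (-1.31, SE 0.47, adjusted p = 0.0338) and from 3.18, 3.22, 3.71 and 4.12 to 0.62, 1.91 and 2.67 in GR iKO (-1.83, SE 0.47, adjusted p = 0.00772). Flox DSS replicate 2 of Cyp3a13 matched the lowest water array, and without Flox DSS replicate 1 the Flox adjusted p was 0.159.

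Cyp2a5, the coumarin hydroxylase, had the same pattern over arrays as Cyp3a44 and Cyp3a41a. Its levels were -8.59, -6.83, -7.08 and -5.67 in Flox on water, none well above background, and -1.99, -2.11 and -0.78 on DSS, at least 20.9-fold higher (adjusted p = 0.00184). In GR iKO they were -8.09, -6.80, -7.87 and -6.75 on water and -2.78, -7.95 and -2.02 on DSS, at least 3.04-fold higher (adjusted p = 0.0427). Replicate 3 was again at the level of the water arrays. Without either of the other DSS arrays the Cyp2a5 call in GR iKO was lost (adjusted p = 0.153 without replicate 1 and 0.194 without replicate 4), and without replicate 3 it held (adjusted p = 0.000302). The main probe of Cyp2a4, a steroid hydroxylase and close paralog, gave 1.58 in Flox (adjusted p = 0.0292), turned to -0.78 by spike-in scaling, while its other probes gave 5.64 and 5.58, and the probes of this pair may read each other's transcripts. In GR iKO the main Cyp2a4 probe was not called (0.34), while the others gave 3.35 (limma, adjusted p = 0.00424) and 1.46 (not called). The call of Cyp2a4 in Flox alone thus depended on the probe.

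Of 7 hepatocyte markers, 3 split the DSS arrays as this group did. Albumin, the defining marker of hepatocytes, was at -2.31, -1.90, -2.36 and -2.64 in Flox on water and 1.99, 1.66 and 3.10 on DSS, and at -2.75, -2.46, -2.01 and -2.06 in GR iKO on water and 1.20, -6.47 and 1.82 on DSS. It was thus higher on the same 5 DSS arrays and not well above background on GR iKO DSS replicate 3. Of 7 hepatocyte markers tested, 5 were higher and 1 lower in Flox and 3 higher and 1 lower in GR iKO, and the log2 of their summed level ran from 1.64 to 2.39 in Flox water, 3.35 to 4.22 in Flox DSS, 2.19 to 2.44 in GR iKO water and 3.76 to 4.04 in GR iKO DSS. Replicate 3 had the highest of these GR iKO DSS sums, at 4.04, against 3.77 and 3.76 on replicates 1 and 4. Apoa2 and Fga split the DSS arrays as albumin did. Ahsg was lower on replicate 3 than on the other DSS arrays (-2.25 against -0.092 to 1.65) but above all water arrays, Tat was above them on all 6 DSS arrays, and Ttr was not well above background on any DSS array. Apob did not split them, with replicate 3 at 1.56 and the other DSS arrays from -0.037 to 1.62. Among the 61 P450 genes 10 had the other 5 DSS arrays above all 8 water arrays, and for 6 of these, Cyp2a5, Cyp2c70, Cyp3a16, Cyp3a25, Cyp3a41a and Cyp3a44, replicate 3 was not above them. The part of hepatocyte RNA in these 6 results was not tested.

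Cyp1b1, Cyp7b1 and Cyp4a14 read above every water array on all 6 DSS arrays, replicate 3 included, though Cyp4a14 was not well above background there. Cyp1b1, which oxidises oestrogens and aromatic hydrocarbons and is known from mesenchymal cells, was at -6.21, -6.46, -7.51 and -7.46 in Flox on water and -3.04, -2.47 and -3.86 on DSS, a difference of 3.78 (SE 0.46, adjusted p = 3.49e-05). In GR iKO it was at -7.84, -6.75, -6.89 and -7.93 on water, none well above background, and at -3.05, -4.08 and -4.21 on DSS, at least 4.20-fold higher (adjusted p = 8.6e-05). All 8 fibroblast and matrix markers were also higher on DSS in both genotypes, with log2 summed levels of 6.76 to 7.01 and 6.64 to 7.15 on water and 8.06 to 8.64 and 7.93 to 8.23 on DSS in Flox and GR iKO, and their part in the Cyp1b1 result was not tested. Cyp1a1, the classical target of the aryl hydrocarbon receptor, was above background on 3 arrays, all on water, and no test of it was passed.

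Cyp7b1, an oxysterol hydroxylase, was at -1.68, -1.43, -1.50 and -1.48 in Flox on water and 1.59, 1.46 and 0.75 on DSS. GR iKO arrays read -1.69, -1.47, -1.87 and -1.91 on water and 2.80, 1.47 and 1.04 on DSS. The rises were 2.79 (SE 0.34, adjusted p = 3.32e-05) and 3.51 (SE 0.34, adjusted p = 1.18e-05). With spike-in scaling they were 0.43 (adjusted p = 0.444, not called) and 2.55 (adjusted p = 0.000855). Cyp4a14, a fatty acid hydroxylase, was dim throughout, at -8.17, -7.85, -7.82 and -7.72 in Flox on water against -5.42, -6.24 and -4.25 on DSS, at least 1.63-fold higher (adjusted p = 0.00034). GR iKO levels of Cyp4a14 were -6.72, -7.93, -8.19 and -7.17 on water and -5.96, -6.19 and -5.50 on DSS (adjusted p = 0.00883), with only replicate 4 well above background, so that no fold is given. With spike-in scaling Cyp4a14 was called in neither Flox (adjusted p = 0.603) nor GR iKO (adjusted p = 0.164).

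**Figure D4:**
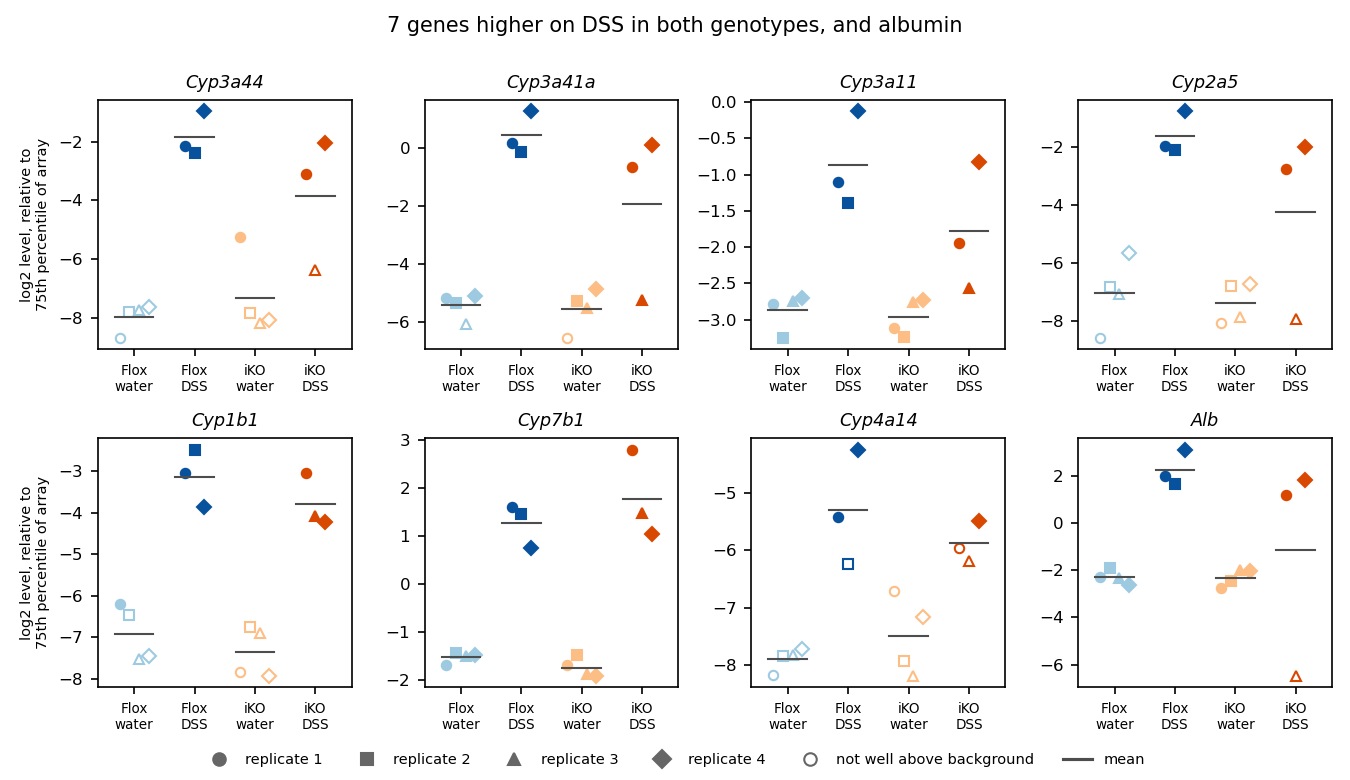
Levels of the 7 P450 genes higher on DSS in both genotypes and of albumin (Alb), drawn as for the falls, each panel with its own axis. In Cyp3a44, Cyp3a41a, Cyp2a5 and Alb the triangle of GR iKO DSS replicate 3 lies within or below the range of the water arrays while the other 5 DSS arrays are higher, and in Cyp1b1 and Cyp7b1 it lies with them.

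In the Cyp4f subfamily, hydroxylases of leukotrienes and other fatty acids, 5 of 6 genes were lower in Flox and 4 in GR iKO. Cyp4f13 fell by 1.38 in Flox and 1.18 in GR iKO, and Cyp4f16 fell by 1.19 and 0.83, with no overlap of water and DSS arrays in either genotype. Cyp4f18, known from neutrophils and other myeloid cells, was lower in Flox alone (-1.07, adjusted p = 0.0395) and was at 1.68, 0.11 and 1.48 on the GR iKO DSS arrays against 0.36 to 1.51 on water. Neutrophil markers moved the other way in Flox, 6 of 7 being higher there and 7 of 7 in GR iKO. Cyp4f39 was lower in Flox (adjusted p = 0.00547), with no Flox DSS array well above background, so that no fold is given, and normexp turned the direction. Cyp4f14 and Cyp4b1 were lower in GR iKO alone (-1.24 and -0.95, adjusted p = 0.0433 and 0.0186), and Cyp4a29, well above background on 3 arrays in all, was at least 1.09-fold higher there. Cyp4a10, Cyp4a12a and Cyp4v3 passed no test.

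Among sterol genes, Cyp51, the lanosterol demethylase of cholesterol synthesis, was at 0.79, 1.29, 0.87 and 0.19 in Flox on water and -0.65, -1.06 and -0.20 on DSS, lower by -1.42 (SE 0.31, adjusted p = 0.00224). In GR iKO it was at 1.19, 0.76, 0.76 and 0.63 on water and 0.63, -0.50 and 0.49 on DSS, and the difference of -0.63 was not called by this probe (adjusted p = 0.122), while both other probes were called at -0.98 and -0.92. Cyp39a1, an oxysterol hydroxylase of bile acid synthesis, fell by 1.09 in Flox and 1.28 in GR iKO (adjusted p = 0.0218 and 0.0115). Cyp46a1, the cholesterol hydroxylase of neurons, was higher in GR iKO (0.78, adjusted p = 0.0036, against -0.18 with spike-in scaling), and Cyp27a1 passed no test. Cyp2r1, a hydroxylase that begins vitamin D activation, had tight groups: -2.82, -2.83, -2.51 and -2.46 went to -3.84, -3.72 and -3.77 in Flox, and -2.34, -2.47, -2.42 and -2.52 went to -3.33, -3.88 and -3.84 in GR iKO (-1.13 and -1.25, adjusted p = 5.86e-05 and 4.68e-05). In Flox the Cyp2r1 fall was as small as -0.25 over 27 alternatives and lost its call in 1 (adjusted p = 0.136). Cyp27b1, which completes the activation, was at -0.032 and 0.44 and was not called. Cyp17a1, a steroid hydroxylase and lyase, was higher in Flox (1.09, adjusted p = 0.0279), turned to -1.27 by spike-in scaling. The retinoic acid hydroxylases Cyp26a1 (1.59 and 0.92) and Cyp26b1 (0.31 and 0.069) and the orphan Cyp20a1 (0.20 and 0.053) were not called.

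The second question was whether loss of the epithelial receptor changed P450 genes. On water none of the 61 genes was called, against 0.00339% of all probes (limma, 1 probe in all). Only Cyp46a1 had an unadjusted limma p under 0.05, with a difference of -0.36. No gene had groups that did not overlap, against 2.26% of all probes. Differences ran from -0.75 to 1.00 with a median SE of 0.40.

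On DSS 2 of the 61 genes were higher in GR iKO than in Flox and none lower, 3.28% of them, against 13.2% of all probes (6.44% higher and 6.78% lower), and 12 had an unadjusted p under 0.05, as had 29.7% of all probes. Cyp2j11, of a subfamily of arachidonic acid epoxygenases, was at -4.75, -5.07 and -4.95 in Flox and -4.33, -4.37 and -3.45 in GR iKO on DSS, a difference of 0.87 (SE 0.24, adjusted p = 0.0345). Those groups did not overlap. Cyp4f41-ps, a transcribed pseudogene, was at -5.23, -5.13 and -4.62 in Flox and -4.06, -4.76 and -4.18 in GR iKO on DSS, by 0.66 (SE 0.20, adjusted p = 0.0448), and its groups overlapped. On water Cyp4f41-ps lay between -3.39 and -3.02 in all 8 arrays, so that on DSS it fell by 1.77 in Flox (SE 0.18, adjusted p = 1.18e-05) and by 1.14 in GR iKO (SE 0.18, adjusted p = 0.000392). Over 27 alternatives these falls were as small as -0.17 and -0.34, and each lost its call in 1 (adjusted p = 0.392 and 0.128). Both genotype differences on DSS had the same sign on every slide that held both groups, with adjusted p = 0.0650 for Cyp2j11 and 0.10 for Cyp4f41-ps when the slide was a block. With normexp background correction the differences were -0.049 for Cyp2j11 and -0.11 for Cyp4f41-ps. Over 27 alternatives Cyp2j11 was called in 17 and Cyp4f41-ps in 7.

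Other Cyp2j genes did not pass the test between genotypes on DSS. Cyp2j6 was at 0.45, 0.21 and 0.08 in Flox and 0.62, 0.58 and 1.58 in GR iKO, and Cyp2j13 at -1.49, -1.65 and -2.01 and at -1.37, -1.36 and -0.63. Neither group pair overlapped, and neither difference was called (0.68, adjusted p = 0.0642, and 0.60, adjusted p = 0.0616). Cyp2j9 went the other way, at 0.40, 0.43 and 0.23 in Flox and -0.84, -0.020 and -0.010 in GR iKO (-0.64, adjusted p = 0.0574). Groups on DSS did not overlap for 5 of the 61 genes, Cyp2a4 being the other one, which is 8.2% against 22.8% of all probes. Within Flox, DSS went with lower Cyp2j11 (-1.05, adjusted p = 0.00192, against 0.12 with normexp), Cyp2j6 (-0.74, adjusted p = 0.0101) and Cyp2j13 (-0.47, adjusted p = 0.0444), and with higher Cyp2j9 (0.93, adjusted p = 0.00147, against -1.43 with spike-in scaling) and Cyp2j5 (at least 1.37-fold, adjusted p = 0.0438, against -0.53 with spike-in scaling). Within GR iKO none of the 5 Cyp2j genes was called, with Cyp2j11, Cyp2j6 and Cyp2j13 at 0.11, 0.017 and 0.077. A second Cyp2j6 probe gave -0.15 on DSS in Flox and 0.36 between genotypes on DSS, not called. A second Cyp2j13 probe gave 0.13 between genotypes on DSS and -1.49 on DSS in GR iKO, neither called, so that the 2 probes of Cyp2j13 disagree.

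**Figure D5:**
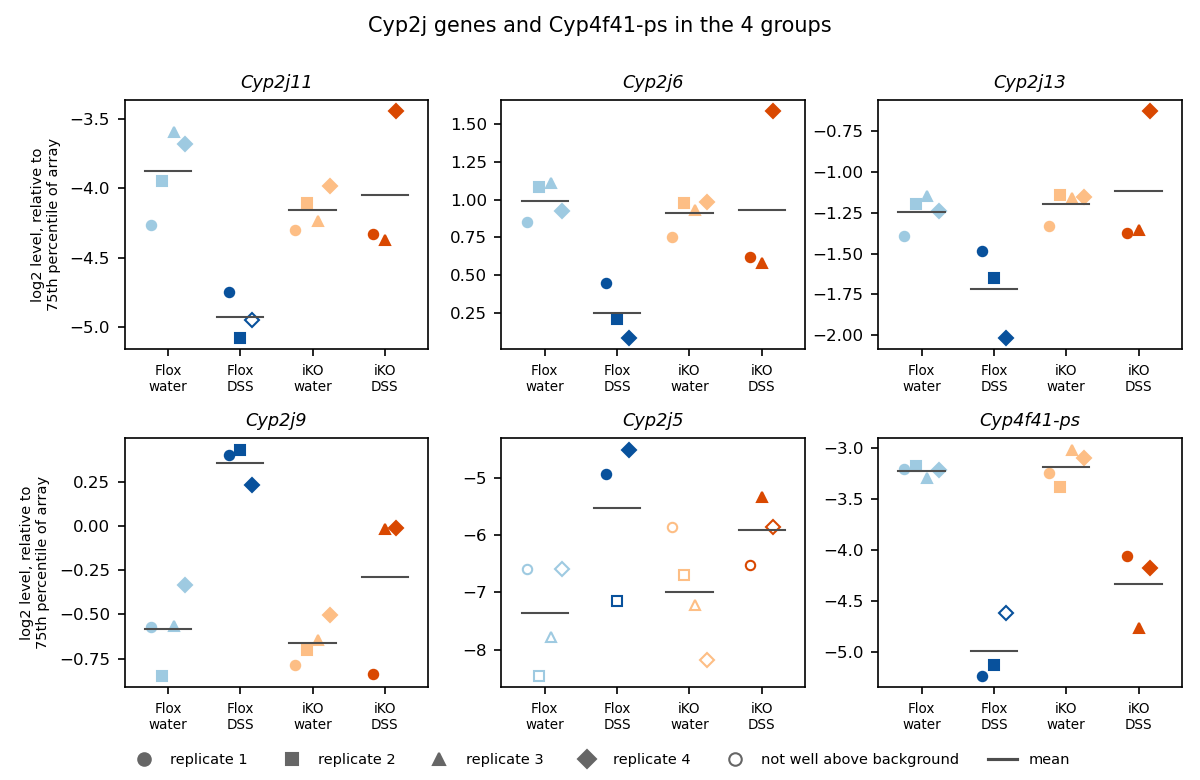
Levels of the 5 Cyp2j genes and Cyp4f41-ps in the 4 groups, drawn as for the falls, each panel with its own axis. On DSS the GR iKO arrays of Cyp2j11, Cyp2j6 and Cyp2j13 lie above all Flox arrays, with replicate 4 highest, and those of Cyp2j9 lie below them.

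The difference between genotypes in the DSS response was tested itself as an interaction. No P450 gene was called (limma), against 0.112% of all probes (0.0881% higher and 0.0237% lower), and 6 had an unadjusted p under 0.05, as had 19.2% of all probes. Cyp2j11 came nearest, at 1.15 (SE 0.32, adjusted p = 0.0942), followed by Cyp2u1 (-1.05, adjusted p = 0.139), Cyp2j6 (0.76), Cyp4f41-ps (0.62), Cyp4f18 (1.29) and Cyp3a25, which was not well above background on water. The calls made in 1 genotype alone therefore do not show that the genotypes differ. Single GR iKO DSS arrays decided which genes were called between genotypes on DSS. Without replicate 3, 6 genes were higher (Cyp2j6, Cyp2j11, Cyp2j13, Cyp4f18, Cyp4f41-ps and Cyp51) and 4 lower (Cyp2c55, Cyp2e1, Cyp2j9 and Cyp2u1) in GR iKO on DSS, where 20.5% of all probes were called, and 5 interactions were called, against 6.97% of all probes. Without replicate 4 none was higher and 7 were lower, among them Cyp2c65 (-3.44), Cyp2s1 (-1.40), Cyp3a11 and Cyp3a25, against 11.6% of all probes called, and without Flox DSS replicate 1 or replicate 2 none was called, against 6.47% and 3.65% of all probes.

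Partners and regulators of P450 enzymes gave the wider pathway. Of 10 electron donors and related proteins tested, 2 were higher and 4 lower on DSS in Flox and 1 higher and 5 lower in GR iKO. Beside this list and those below, 24.4% of all probes were higher and 28.2% lower in Flox, and 22% higher and 22.5% lower in GR iKO. Por, the reductase that feeds electrons to microsomal P450 enzymes, rose by 0.86 (SE 0.11, adjusted p = 4.26e-05) in Flox and 0.62 (SE 0.11, adjusted p = 0.000655) in GR iKO. The mitochondrial donors Fdx1 and Fdxr fell by 0.78 and 0.85 in Flox and by 0.89 and 0.98 in GR iKO, and the haem-binding partners Pgrmc1 and Pgrmc2 fell by 0.44 and 0.42 and by 0.47 and 0.38. None of the 10 was called between genotypes on DSS (limma), against 13.2% of all probes.

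Of 20 receptors, regulators and related genes of P450 control, 2 were higher and 7 lower in Flox, and 5 higher and 8 lower in GR iKO. In either direction 52.6% of all probes were called in Flox and 44.5% in GR iKO. Ahrr, Nqo1, Vdr and Hnf4g were lower in both genotypes. Nqo1, an oxidoreductase, fell by 1.70 and 1.88 and the vitamin D receptor Vdr by 1.61 and 1.54. Nr1i2, the xenobiotic receptor PXR, was lower in Flox (-1.15, adjusted p = 0.000292) and at -0.29 in GR iKO, not called, and Hnf4a, a nuclear receptor of epithelial and liver cells, had the same calls (-1.17 and -0.30). On DSS both were higher in GR iKO than in Flox, Nr1i2 by 0.81 (SE 0.20, adjusted p = 0.0235) and Hnf4a by 0.76 (SE 0.19, adjusted p = 0.0237), as was the bile acid receptor Nr1h4 (0.69, adjusted p = 0.0304). Cebpb, an inflammation-responsive factor, rose by 3.18 and 3.29. Among 12 related enzymes of eicosanoids and epoxides, 3 were higher and 2 lower in Flox and 4 higher and 3 lower in GR iKO. Ptgis, itself a P450 that makes prostacyclin, rose by 2.04 and 1.51, and Lta4h, which makes a leukotriene, fell by 1.04 and 0.90. Ptgs2, the inducible cyclooxygenase, rose by 1.83 in Flox and 4.22 in GR iKO, and on DSS it was higher in GR iKO by 2.43 (SE 0.31, adjusted p = 0.00459).

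Epithelial markers stand beside these falls. Of 12 epithelial genes 1 was higher and 5 lower in Flox and 1 higher and 1 lower in GR iKO, and on DSS 4 were higher in GR iKO than in Flox. Of 7 colonocyte genes 1 was lower in Flox and 2 in GR iKO. Epithelial log2 summed levels were 10.4 to 10.7 in Flox water and 10.2 to 10.8 in Flox DSS. They were 10.5 to 10.7 in GR iKO water and 10.5 to 11.0 in GR iKO DSS. Colonocyte sums were 9.34 to 9.76 on water and on DSS 9.16, 8.92 and 10.07 (Flox) and 8.44, 9.56 and 9.50 (GR iKO). Of 8 goblet cell genes 3 were lower in Flox and none in GR iKO. Goblet cell sums were 10.4 to 11.0 on water and on DSS 9.06, 8.61 and 11.5 (Flox) and 9.14, 11.0 and 9.98 (GR iKO). Among DSS arrays both sums were highest on replicate 4 in Flox and replicate 3 in GR iKO. So were Cyp2c40, Cyp2c29, Cyp2f2 and Cyp2d13, but not Cyp2c39, Cyp2d26, Cyp3a13 or Cyp4f41-ps. The part of epithelial loss in the P450 falls was not tested.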

How the data were processed

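Whole-colon RNA of 14 samples (4, 3, 4 and 3 in Flox water, Flox DSS, GR iKO water and GR iKO DSS) was hybridised to 1-colour Agilent arrays. The authors extracted the deposited intensity values with Feature Extraction 12.0.0.7, which subtracts background, per the file headers, and the array grid names build mm9. The deposited value table, used as an alternative, holds the authors' log2 values, and the submitters' processing notes name Partek 6.6. The study's own test for these arrays is not given in the sources used here. Groups came from the sample labels.

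Processed intensity was set to log2, scaled to each array's 75th percentile and averaged per probe after 1639 control spots were left out. Probes well above background on at least 3 arrays (29523 of 41174) were tested with limma 3.58.1 in R 4.3.3 (lmFit and eBayes over all 14 arrays, Benjamini-Hochberg adjustment over all tested probes, adjusted p under 0.05). Probes were named through RefSeq accessions, of which 28223 of 29245 matched a symbol, and different probes of a gene were kept apart. Where a group was well above background on no array, the fold is a bound. Where it was so on only some arrays, the fitted difference is given, and it is no exact measure of fold. The mean signal column was not in the files used here, so normexp (offset 50) ran on the median signal. By rule, genes named in full were those called in both genotypes with the largest mean change and those called between genotypes. Values of single arrays are also given for genes outside this rule, among them Cyp51, Cyp2r1, Cyp2c55, Cyp2j6, Cyp2j9 and Cyp2j13. The rest are given by subfamily. The members, lists and tests were chosen with earlier results of these data known. The limma script was tested on simulated data. Alternatives were other background corrections, scalings, filters, blocks, weights and leaving out each array. Figures were drawn with matplotlib 3.10.9 in Python 3.11.15.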

Additional observations from a re-analysis of the deposited data

Results flagged for a closer look

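In 9 of 122 P450 gene and water group pairs, each of 4 arrays, 1 array stood apart by a gap that took more of the group's whole range than Dixon's 95% critical value, which chance gives in about 1 of 20 groups. In Flox on water these were replicate 2 for Cyp2c29 (0.922 of the range) and Cyp3a11 (0.835), both low, and replicate 1 for Cyp3a44 (0.837), low and not well above background. In GR iKO on water, replicate 4 stood apart for Cyp2c37 (0.857, high) and Cyp2c55 (0.847, low). In the same group the array that stood apart was replicate 1 for Cyp2j13 (0.892, low), replicate 3 for Cyp2u1 (0.891, low), replicate 2 for Cyp3a16 (0.954, high) and replicate 1 for Cyp3a44 (0.885, high). The high readings of Cyp3a16 and Cyp3a44 were the only ones of their gene well above background on water. Groups of 3 arrays were not examined in this way.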

How the results depend on the processing

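Of 65 calls of single P450 genes, 41 held without any single array and 26 held their direction and call under every alternative run for them. Leaving out 1 array at a time gave 11 to 15 genes higher and 14 to 23 lower on DSS in Flox, 6 to 10 higher and 14 to 22 lower in GR iKO, 0 higher and 0 lower between genotypes on water, 0 to 6 higher and 0 to 7 lower between genotypes on DSS, and 0 to 3 higher and 0 to 2 lower for the interaction. The share of all probes called ran from 44.2% to 56.3% in Flox and from 38.5% to 47.2% in GR iKO. It ran from 3.65% to 20.5% between genotypes on DSS and from 0% to 7.52% for the interaction. The Nr3c1 difference ran from -0.86 to -0.74 on water and from -0.93 to -0.74 on DSS.

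With spike-in scaling 6 genes were higher and 46 lower on DSS in Flox, 4 higher and 32 lower in GR iKO, 26 higher in GR iKO than in Flox on DSS and 21 higher for the interaction, while the median of all probes was -2.45, -0.98 and 1.26 in the first 3 of these comparisons. Of all probes, 89.5%, 57.4%, 74% and 63.5% were called in the 4 comparisons. The scaling turned the DSS difference in Flox to -1.27 for Cyp17a1, -0.78 for Cyp2a4, -1.29 for Cyp2c70, -0.53 for Cyp2j5, -1.43 for Cyp2j9 and -0.37 for Cyp3a11, and that in GR iKO to -0.18 for Cyp46a1. It gave Nr3c1 differences of -0.98 on water and 0.40 on DSS. The cause was not tested.

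With normexp background correction 23 genes were higher on DSS in Flox, and 1 was higher and 2 lower in GR iKO than in Flox on DSS. Of all probes, 55.9% were called in Flox and 13.6% between genotypes on DSS. The DSS difference turned to 0.12 for Cyp2j11 and 0.37 for Cyp4f39 in Flox and to 0.064 for Cyp2u1 in GR iKO, and the genotype difference on DSS to -0.049 for Cyp2j11 and -0.11 for Cyp4f41-ps. The share of higher calls among all called probes went from 46.4% to 65.0% in Flox, from 49.4% to 58.7% in GR iKO and from 48.7% to 33.7% between genotypes on DSS. The cause was not tested.

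Between genotypes on DSS, 0 genes were higher with no filter on dim probes, with the slide as a block, with only the groups compared and with water and DSS arrays weighted separately, against 4 with array quality weights (and 3 for the interaction), 1 without moderation, and 1 higher and 1 lower with an eBayes trend. Of all probes, 6.38%, 5.46%, 0% and 0.0203% were called in the first 4 of these settings. The shares were 15.1% with array quality weights (10% for the interaction), 12.1% without moderation and 13.8% with a trend. The deposited value table gave 1 lower, with 13.7% of all probes called. Equal replicate numbers did not meet the rule for pairing, a correlation over 0.1 in every pair: deviations of the 18 same-numbered pairs correlated from -0.227 to 0.310 (median 0.099, 9 over 0.1) and those of 55 other pairs had a median of -0.020 (11 over 0.1), and with a replicate block 0 genes were higher between genotypes on DSS. With that block 7.57% of all probes were called between genotypes on DSS. Genes not well above background in a group allow bounds at most.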
